A study of Mus musculus with 6 samples.

Results

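The surface antibody panel of this study holds 138 antibody tags, and the 134 tags other than CD62L, CD44, Ly6C and CD366 are described here as they vary across cell types. An antibody tag is an antibody against a surface protein that carries a DNA barcode, so that its molecules are counted in the same droplet as the RNA. Wild-type C57BL/6J mice of 6 to 8 weeks bore intracranial tumors of CT2A, a mouse glioma cell line. Tumors were taken at day 13 from 16 mice, pooled by 4, and at day 19 from 4 mice, and cells carrying CD3 with CD4 or CD8 were sorted for 5' single-cell capture. Each day has 1 gene expression, 1 antibody tag and 1 T cell receptor (TCR) library, the first 2 in 1 matrix, so no difference between cell types has a replicate check, no p-value is given, and day, capture and staining cannot be told apart.

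T cells are known by the CD3 complex and its TCR, with CD4 or CD8 as coreceptors, and they carry Thy-1 (CD90) and CD5. Macrophages, monocytes and microglia carry the integrin CD11b, and antigen-presenting cells carry MHC class II (the IA/IE tag) with the costimulatory ligand CD86. Free antibody also enters droplets, so the level of a tag in droplets without a cell is the background against which a cell is read, and isotype controls (antibodies with no target) show unspecific binding.

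Barcodes with at least 5000 gene UMIs (unique molecular identifiers, each marking 1 captured molecule) were classed by RNA and TCR contigs. CD8 and CD4 barcodes lay in the deposited contig tables and had RNA of Cd8a or Cd8b1 without Cd4, or of Cd4 without Cd8a and Cd8b1. Non-T barcodes lay outside the contig tables and had no UMI of Cd3d, Cd3e or Cd3g. There were 2959 CD8, 797 CD4 and 1018 non-T barcodes at day 13, and 1800, 794 and 343 at day 19. Left out of the comparisons were 876 and 621 barcodes in the contig tables whose RNA fitted neither T cell class, and 3229 and 1109 barcodes outside these tables that had RNA of a Cd3 gene. The latter had high medians of both T cell and myeloid tags, with levels (UMIs per 10000 antibody UMIs) of 38.7 and 71.2 for CD90.2, 37.6 and 93.6 for CD11b and 19.8 and 53.1 for IA/IE at day 13 and day 19. The median barcode held 4303, 4400 and 4369 antibody UMIs in these classes at day 13 and 2266.5, 2368 and 2308 at day 19, so median antibody depth was near equal between classes within a day. Totals were less even, since 1 non-T barcode held 142179 of the 5030817 antibody UMIs of its class at day 13, and 1 held 136637 of 1003588 at day 19. In non-T barcodes the 8 T cell marker genes summed to 19.5 CPM (UMIs scaled to a common total of gene UMIs) at day 13 and 35.2 at day 19, against 4190 and 4103 CPM in CD8 barcodes, with Cd3d, Cd3e and Cd3g at 0 by the rule. The 8 macrophage markers summed to 9062 and 9257 CPM in non-T barcodes, but also to 5295 and 6855 CPM in CD4 and 1391 and 2187 CPM in CD8 barcodes. 62 barcodes with at least 5000 gene UMIs occurred on both days.

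Most tags sat at the level of empty droplets in every class. The level of a tag is its UMIs per 10000 antibody UMIs, and it cannot be compared between tags, since antibodies differ in binding and in amount. Barcodes with at most 100 gene UMIs held 71.6% of all antibody UMIs at day 13 and 87.4% at day 19, and their summed profile is called the empty level here. Antibody-rich barcodes weighed heavily in that profile, and what they hold was not tested. The median such barcode held 24 antibody UMIs at day 13 and 15 at day 19, but the 99th percentile was 4879 and 2613. Summed over barcodes with at most 62 and 47 antibody UMIs (the 90th percentile) in place of all, the level lay within 20% of the empty level for 117 of 134 tags at day 13 and 118 at day 19. The class median of a tag lay within 20% of its empty level for 126 of 134 tags in CD8, 119 in CD4 and 122 in non-T barcodes at day 13, and for 117, 112 and 116 at day 19. Tags over 1.5 times the empty level were few. In CD8 barcodes at day 13 they were CD90.2, CD45, CD5 and Ly6A, 4 of 134. In CD4 barcodes at day 13 CD11b, CD54 and CD43 joined them. At day 19 CD8 barcodes had these same 7, and CD4 barcodes had CD4, CD357 and IA/IE in addition, which made 10. In non-T barcodes they were CD11b, IA/IE, CD54, CD45 and Ly6A on both days, with CD86 at day 13 and CD11c at day 19. Against the level of antibody-poor barcodes, 6 tags in CD8, 11 in CD4 and 8 in non-T barcodes were over 1.5 times at day 13, and 8, 13 and 8 at day 19. H2kb was then added in all 3 classes on both days, TCRB and CD73 in CD4 barcodes on both days, and TCRB in CD8 barcodes at day 19. CD90 was added in all 3 classes at day 13 and in CD8 and non-T barcodes at day 19, CD68 in all 3 at day 13, and CD43 in CD8 and CD11c in non-T barcodes at day 13. CD5 and Ly6A in CD8 barcodes, CD54 in CD4 and Ly6A and CD86 in non-T barcodes dropped out at day 13, as did CD11b and CD5 in CD8 barcodes at day 19. The 3 isotype controls had medians between 0.845 and 0.972 times the empty level in the 3 classes over both days.

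**Figure D1:**
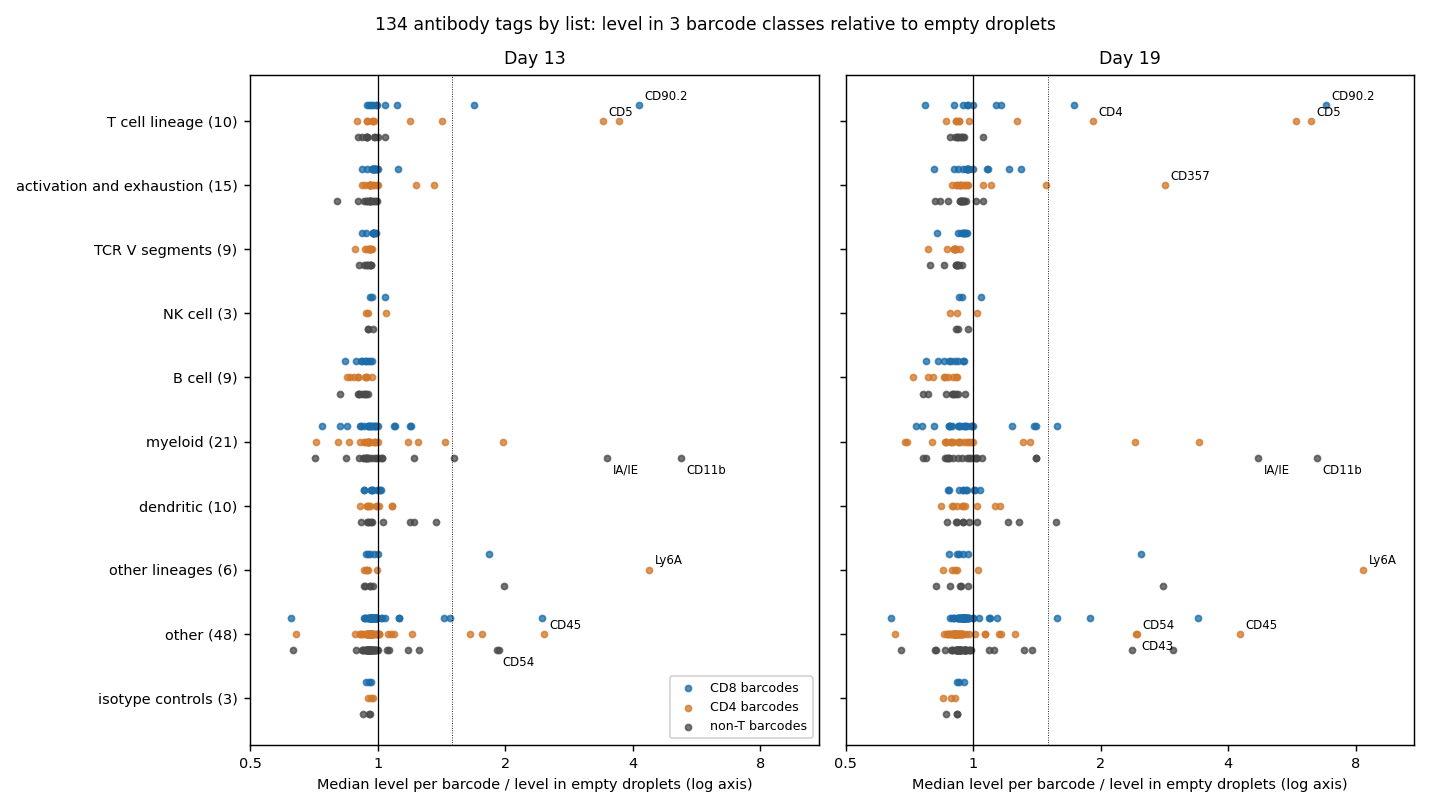
Median level per barcode divided by the empty-droplet level (log axis) for each of the 134 tags, grouped by list with the number of tags in brackets, in CD8, CD4 and non-T barcodes at day 13 (left) and day 19 (right). The solid line marks 1 and the dotted line 1.5; most tags lie near 1, while CD90.2, CD5, CD11b, CD54, IA/IE, Ly6A, CD45 and CD43 exceed 1.5 in a class on both days.

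Summed levels past 2-fold were few in each comparison. Between CD8 and non-T barcodes 5 of 134 tags passed 2-fold at day 13, where 4.35% of all 138 tags did, and 8 at day 19 (6.52%). Between CD4 and non-T barcodes 5 tags passed at day 13 (4.35%) and 13 at day 19 (9.42%). Between CD8 and CD4 barcodes 4 passed at day 13 (3.62%) and 9 at day 19 (7.25%). Of CD8 against non-T barcodes, 2 tags were higher and 3 lower at day 13 (2.17% and 2.17% of all tags), and 3 and 5 at day 19 (2.9% and 3.62%). Of CD4 against non-T barcodes, 3 were higher and 2 lower at day 13 (2.9% and 1.45%), and 8 and 5 at day 19 (5.8% and 3.62%). CD8 barcodes had 2 tags higher and 2 lower than CD4 barcodes at day 13 (2.17% and 1.45%), and 2 and 7 at day 19 (2.17% and 5.07%).

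Single barcodes carried part of these sums. Without the single barcode that held the most UMIs of each tag in each class, 3 and 4 tags remained past 2-fold of CD8 against non-T, 3 and 6 of CD4 against non-T, and 3 and 7 of CD8 against CD4, at day 13 and day 19. The share of all 138 tags is not given for these remaining tags, so their counts have no background beside them. A ratio of medians over barcodes leaves such single barcodes no weight. By medians, 3 tags passed 2-fold in CD8 against non-T barcodes at day 13 and 3 at day 19 (2.17% of 138 each), 5 and 5 in CD4 against non-T (3.62% each), and 2 and 5 in CD8 against CD4 (1.45% and 3.62%). These were CD90.2, CD5, CD4, CD357, Ly6A, CD11b and IA/IE in one comparison or another.

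The share of barcode pairs, 1 barcode from each class, in which the first class had the higher level is 50% for classes that do not differ. CD8 barcodes were higher than non-T barcodes in at least 70% of pairs for CD90.2 and CD5 and in at most 30% for CD11b and IA/IE, on both days (1.45% of all 138 tags each way). CD4 barcodes were higher than non-T barcodes in at least 70% of pairs for CD4, CD90.2, CD43, CD5, Ly6A and CD357 at day 13 (4.35%), with CD73 added at day 19 (5.07%), and in at most 30% for CD11b at day 13 (0.725%) and for none at day 19 (0%). CD8 barcodes were above CD4 barcodes in at least 70% of pairs for none of the 134 tags (0% of all tags at day 13 and 0.725% at day 19), and in at most 30% for CD5 and Ly6A at day 13 (2.17%) and for CD4, CD5, Ly6A and CD357 at day 19 (3.62%).

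For several tags the summed level stood far above the median. IgD, the B cell receptor isotype, had a summed level of 32.4 in non-T barcodes at day 19 with a median of 7.81, and 1 barcode held 77.5% of its 3253 UMIs. CD38 in the same class had 82.5% of its 12612 UMIs in 1 barcode, and its median was 23.4 against an empty level of 28.1. CD1d, which presents lipids, reached a summed level of 102.8 in CD4 barcodes at day 19, with 64.7% of UMIs in 1 barcode and a median of 10.5. Gr1, a granulocyte antigen, had summed levels between 25.1 and 111.2 in the 3 classes over both days, against medians between 16.9 and 20.5. Siglec H and CD252 in non-T barcodes at day 19 had 59.2% and 61.5% of their UMIs in 1 barcode. The first class had the higher level in 44.4% to 64.5% of pairs for these 6 tags over the 3 comparisons and both days.

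Among T cell lineage tags, CD90.2 and CD5 set T cell barcodes apart more than the CD3 and TCR tags did. CD90.2 is the Thy-1 form of C57BL/6 mice. Its median at day 13 was 28.3 in CD8 barcodes (quartiles 19.4 and 37.9), 25.4 in CD4 barcodes (17.0 and 37.6) and 7.12 in non-T barcodes (4.43 and 10.7), with 6.84 in empty droplets. At day 19 the medians were 44.1, 37.6 and 6.84, against 6.495 in empty droplets. Non-T barcodes thus lay at the empty level of CD90.2, and the lower quartile of both T cell classes was above the upper quartile of non-T barcodes on both days. The summed level was higher in CD8 than in non-T barcodes by 1.84 on the log2 scale at day 13 (95% Poisson interval 1.79 to 1.89) and by 2.41 at day 19 (2.31 to 2.51). Such intervals cover counting error only. The CD8 barcode had the higher level in 94.0% of pairs at day 13 and 91.5% at day 19, and for CD4 barcodes the shares were 92.4% and 90.6%. Over the 4 contig tables of a day, which the labels do not tie to animals, the CD90.2 medians of CD8 barcodes ranged from 26.6 to 29.8 and from 42.0 to 47.7. The second Thy-1 antibody, CD90, had medians of 61.9, 60.4 and 61.0 in CD8, CD4 and non-T barcodes at day 13, against an empty level of 62.3 and a level of 37.7 in antibody-poor barcodes.

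CD5, a receptor that damps TCR signals, was graded from non-T over CD8 to CD4 barcodes. Its medians were 11.7 in non-T, 19.7 in CD8 and 39.6 in CD4 barcodes at day 13, and 10.3, 19.6 and 70.8 at day 19. The lower quartile of CD4 barcodes, 24.6 at day 13 and 40.0 at day 19, was above the upper quartile of non-T barcodes, 16.1 and 16.2. The log2 ratio of CD4 to non-T barcodes was 1.75 (1.71 to 1.80) at day 13 and 2.78 (2.69 to 2.87) at day 19, and the CD4 barcode was higher in 92.4% and 94.6% of pairs. CD8 barcodes stood 0.79 above non-T barcodes at day 13 and 1.12 at day 19 on the log2 scale, with 77.3% and 73.4% of pairs. The value at day 19 stayed past 2-fold in 11 of 19 alternative settings and went down to 0.72 by a centred log ratio per barcode. The CD8 barcode had the higher CD5 level than the CD4 barcode in 20.7% of pairs at day 13 and 13.9% at day 19. CD5 medians of the 4 contig tables ranged from 35.9 to 46.1 for CD4 and from 19.2 to 20.2 for CD8 barcodes at day 13, and from 66.9 to 89.2 and 17.7 to 22.4 at day 19. These medians did not overlap between the 2 classes, although single barcodes did.

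The coreceptor tags differed in how well they matched the RNA classes. The CD4 tag had medians of 10.2 in CD4, 6.78 in CD8 and 6.47 in non-T barcodes at day 13, and 13.8, 5.54 and 6.74 at day 19, with an empty level of 7.20 and 7.21. A CD4 barcode was above a non-T barcode in 70.4% and 74.8% of pairs. The CD8a tag had medians of 20.6 in CD8, 18.7 in CD4 and 19.5 in non-T barcodes at day 13, and 22.5, 18.4 and 18.3 at day 19. A CD8 barcode exceeded a CD4 barcode in CD8a level in 57.5% and 61.8% of pairs, although Cd8a RNA was 699 and 733 CPM in CD8 barcodes and 0 in CD4 barcodes by the rule. The CD3 tag was at 86.1, 86.5 and 82.8 in CD8, CD4 and non-T barcodes at day 13, all below the empty level of 88.2. The TCR beta tag (TCRB) had medians of 15.9, 17.0 and 13.5 at day 13, and a CD8 barcode was above a non-T barcode in 61.0% of pairs. At day 19 TCRB had medians of 16.9, 18.4 and 13.4, while its summed level was higher in non-T barcodes, where 60.8% of UMIs were in 1 barcode.

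**Figure D2:**
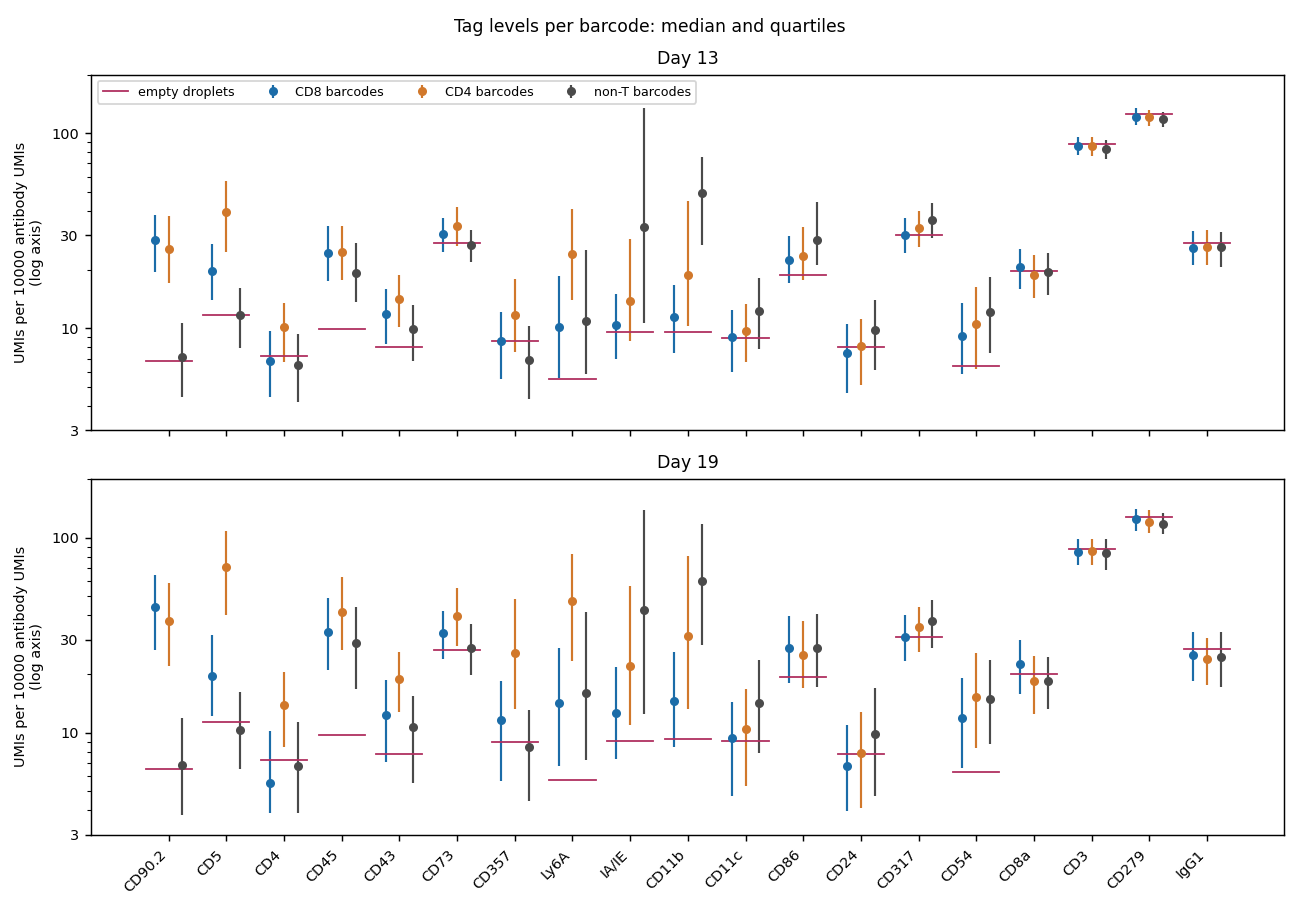
Level per barcode (UMIs per 10000 antibody UMIs, log axis) of 19 tags at day 13 (top) and day 19 (bottom): points are medians and bars run from the lower to the upper quartile over barcodes of each class, and the horizontal line is the empty-droplet level. CD90.2 and CD5 are high in T cell barcodes, IA/IE and CD11b in non-T barcodes, and CD8a, CD3, CD279 and IgG1 lie near the empty level in all 3 classes.

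Ly6A was lower in CD8 than in CD4 barcodes past 2-fold on both days, and CD357 at day 19. Ly6A (Sca-1), an interferon-inducible antigen of stem cells and activated T cells, had medians of 24.2 in CD4, 10.1 in CD8 and 10.95 in non-T barcodes at day 13, and 47.5, 14.2 and 16.0 at day 19, against empty levels of 5.52 and 5.71. CD8 barcodes were lower than CD4 barcodes by a log2 ratio of -1.09 (-1.13 to -1.06) at day 13 and -1.46 (-1.499 to -1.42) at day 19. The ratio at day 13 was -0.87 at a minimum of 1000 or of 10000 gene UMIs per barcode. The CD8 barcode was the higher one in 23.9% and 20.4% of pairs. Ly6A did not separate CD8 from non-T barcodes, with 45.7% and 44.97% of pairs.

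CD357 (GITR), a TNF receptor family member abundant on regulatory and activated T cells, had medians of 11.7, 8.62 and 6.91 in CD4, CD8 and non-T barcodes at day 13, and 25.5, 11.7 and 8.45 at day 19. Its empty level was 8.64 and 9.02, so the CD8 class at day 13 lay at background. The log2 ratio of CD8 to CD4 barcodes was -0.55 at day 13 and -1.27 at day 19, and -0.90 at day 19 by a centred log ratio. The CD4 barcode was above the non-T barcode in 73.0% of pairs at day 13 and 82.4% at day 19. Medians of CD4 barcodes over the contig tables ran from 11.3 to 12.6 at day 13 and from 19.1 to 44.7 at day 19. CD73, an ectoenzyme that makes adenosine, had medians of 33.6, 30.6 and 26.8 in the same order at day 13 and 39.6, 32.4 and 27.1 at day 19. CD43 (sialophorin) had 14.1, 11.9 and 9.98 at day 13 and 18.8, 12.3 and 10.7 at day 19, against empty levels of 7.99 and 7.79. CD45, the phosphatase of all leukocytes, was over its empty level in all 3 classes, with medians of 24.6, 24.4 and 19.3 at day 13 and 41.4, 32.9 and 28.8 at day 19, against 9.98 and 9.71. CD45 was at 11.6 and 11.5 in the Microglia-like cluster of non-T barcodes, close to the empty level. Its log2 ratios of CD8 and CD4 to non-T barcodes were 0.35 and 0.37 at day 13 and 0.33 and 0.69 at day 19, none past 2-fold.

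The inhibitory receptors PD-1, LAG-3, TIGIT and CTLA-4 gave next to no signal as tags. The 15 tags of the activation and exhaustion list had medians between 0.919 and 1.36 times the empty level in CD8 and CD4 barcodes at day 13. At day 19 they lay between 0.806 and 1.29 in CD8 and between 0.892 and 2.83 in CD4 barcodes, where CD357 was the tag over 1.5 times. PD-1 (CD279) had medians of 121.8, 120.8 and 118.7 in CD8, CD4 and non-T barcodes at day 13, against an empty level of 125.5, and 124.2, 120.9 and 118.1 at day 19 against 126.9. The RNA of its gene Pdcd1 was 202, 146 and 10.0 CPM in these classes at day 13. LAG-3 (CD223), TIGIT and CTLA-4 (CD152) had medians of 192.8, 289.1 and 174.6 in CD8 barcodes at day 13, and 186.9, 286.2 and 172.0 in non-T barcodes, all below their empty levels of 195.6, 297.0 and 179.9. Among CD4 barcodes, those with a Pdcd1 UMI had the higher PD-1 tag level in 55.7% of pairs at day 13 and 50.5% at day 19. The panel held 2 antibodies to ICOS (CD278). The first had medians of 148.2, 135.4 and 130.7 in CD4, CD8 and non-T barcodes at day 19, with 68.5% of pairs for CD4 against non-T, while for the second the share was 52.2%.

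Of the 21 myeloid tags, CD11b and IA/IE were lower in CD8 than in non-T barcodes past 2-fold on both days. CD11b had medians of 49.5 in non-T, 18.8 in CD4 and 11.4 in CD8 barcodes at day 13, and 60.1, 31.5 and 14.6 at day 19, against empty levels of 9.53 and 9.26. CD8 barcodes were below non-T barcodes by log2 ratios of -1.68 (-1.71 to -1.66) and -1.42 (-1.46 to -1.37), and a CD8 barcode was the higher one in 12.8% and 19.1% of pairs. Over the alternative settings the CD11b ratio ran from -2.29 in T cell barcodes with little myeloid RNA to -1.03 at a minimum of 10000 gene UMIs at day 13. At day 19 it ran from -2.54 to -0.98, the latter at a minimum of 1000 gene UMIs and short of 2-fold. IA/IE had medians of 33.2, 13.7 and 10.4 at day 13 and 42.8, 22.0 and 12.7 at day 19 in non-T, CD4 and CD8 barcodes. Its spread over non-T barcodes was wide, with quartiles of 10.6 and 135.1 at day 13. The log2 ratio of CD8 to non-T barcodes was -2.08 (-2.10 to -2.06) at day 13 and -1.94 (-1.98 to -1.91) at day 19. It ran from -3.25 with little myeloid RNA to -1.07 at a minimum of 10000 gene UMIs at day 13. At day 19 it ran from -3.24 with little myeloid RNA to -1.38 at a minimum of 1000 gene UMIs. The lower ends follow in part from the choice of barcodes, since 3 of the 8 myeloid genes used for it encode the IA/IE antigen. The upper quartile of CD8 barcodes, 14.9 and 21.6, overlapped the lower quartile of non-T barcodes, 10.6 and 12.5. Summed levels of CD4 against non-T barcodes did not pass 2-fold for either tag, with -0.69 and -0.24 for CD11b and -0.99 and -0.75 for IA/IE. By medians both tags passed at day 13, with -1.40 for CD11b and -1.27 for IA/IE. Neither did at day 19, with -0.93 and -0.96. A CD4 barcode was the higher one in 28.6% and 37.5% of pairs for CD11b and in 36.7% and 41.0% for IA/IE. By summed levels the myeloid tag past 2-fold there on both days was Gr1, with -1.77 and -1.63, but -0.11 and -0.15 by medians. Of the Gr1 UMIs of non-T barcodes, 1 barcode held 28.8% and 58.1%, and pairs were at 45.1% and 44.4%.

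Smaller differences in the same direction were seen for 4 tags. CD11c, the integrin of dendritic cells, was lower in CD8 than in non-T barcodes with 35.3% and 34.7% of pairs, and CD24, a dendritic and B cell antigen, with 37.0% and 36.5%. CD317, known as the plasmacytoid dendritic antigen of mice, had 34.6% and 37.6%, and CD54 (ICAM-1) 37.9% and 41.5%. CD86 was lower at day 13, with medians of 22.5 against 28.5 and 34.99% of pairs, but not at day 19, with 27.1 in both classes and 50.3%. F4/80, CD14, CD64, CD115, CX3CR1, MERTK, CD206 and CD16, all antigens of macrophages or monocytes, had class medians in non-T barcodes between 0.843 and 1.02 times their empty levels over both days. CD172a (SIRP alpha), a myeloid receptor for CD47, was at log2 ratios of -0.46 and -0.45 in CD4 against non-T barcodes, with 43.0% and 37.8% of its non-T UMIs in 1 barcode and 47.8% and 46.4% of pairs.

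CD4 barcodes carried more CD11b and IA/IE tag than CD8 barcodes, and for CD11b this moved with myeloid RNA in the same barcodes. CD8 barcodes were below CD4 barcodes by log2 ratios of summed levels of -0.99 for CD11b and -1.09 for IA/IE at day 13, and -1.18 and -1.19 at day 19. By medians the ratios were -0.72 for CD11b and -0.40 for IA/IE at day 13, and -1.11 and -0.79 at day 19. At least 1 UMI of C1qa, a complement gene of macrophages, was found in 15.01% of CD8 and 35.4% of CD4 barcodes at day 13, and in 28.4% and 57.4% at day 19. Barcodes with more than 2 UMIs in all of 8 myeloid genes (C1qa, C1qb, C1qc, Lyz2, Cst3, H2-Aa, H2-Ab1 and H2-Eb1) made up 34.6% of CD8 and 62.7% of CD4 barcodes at day 13, and 49.8% and 76.7% at day 19. CD11b had a median of 35.7 in CD4 barcodes with such RNA and 10.3 in those without at day 13, and 47.6 and 11.2 at day 19. For IA/IE these medians were 18.9 and 10.4, then 30.1 and 10.6. Since H2-Aa, H2-Ab1 and H2-Eb1 encode the IA/IE antigen, a split by these genes lowers IA/IE in the subset without them by construction. Its log2 ratio of CD8 to CD4 barcodes there, -0.17 on both days, is thus no separate measure. The gene of CD11b, Itgam, is not among the 8. Among T cell barcodes with up to 2 such UMIs the log2 ratio of CD8 to CD4 barcodes for CD11b at day 19 was -0.09, and CD11b lay close to the empty level in both T cell classes.

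The T cell tags followed myeloid RNA less closely. CD90.2 had medians of 24.04 in CD4 barcodes with more myeloid RNA and 27.3 in those with little at day 13, and CD5 had 39.9 and 39.4. At day 19 CD90.2 had 38.1 and 36.4, while CD5 had 75.3 and 58.7. Ly6A followed it more. At day 13 Ly6A had a median of 26.3 in CD4 barcodes with more myeloid RNA and 20.7 with little, and 14.3 and 8.57 in CD8 barcodes. CD357 differed little at day 13, with 11.9 and 11.1 in CD4 and 8.83 and 8.49 in CD8 barcodes. Among CD4 barcodes at day 19 Ly6A had a median of 55.2 with more myeloid RNA and 26.1 with little, and CD357 had 30.1 and 16.8. CD8 barcodes with little myeloid RNA had 10.5 for Ly6A and 10.4 for CD357, so CD4 barcodes remained higher within that subset. The part of myeloid RNA, gene UMI depth or T cell state in these 2 tags was not tested.

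**Figure D3:**
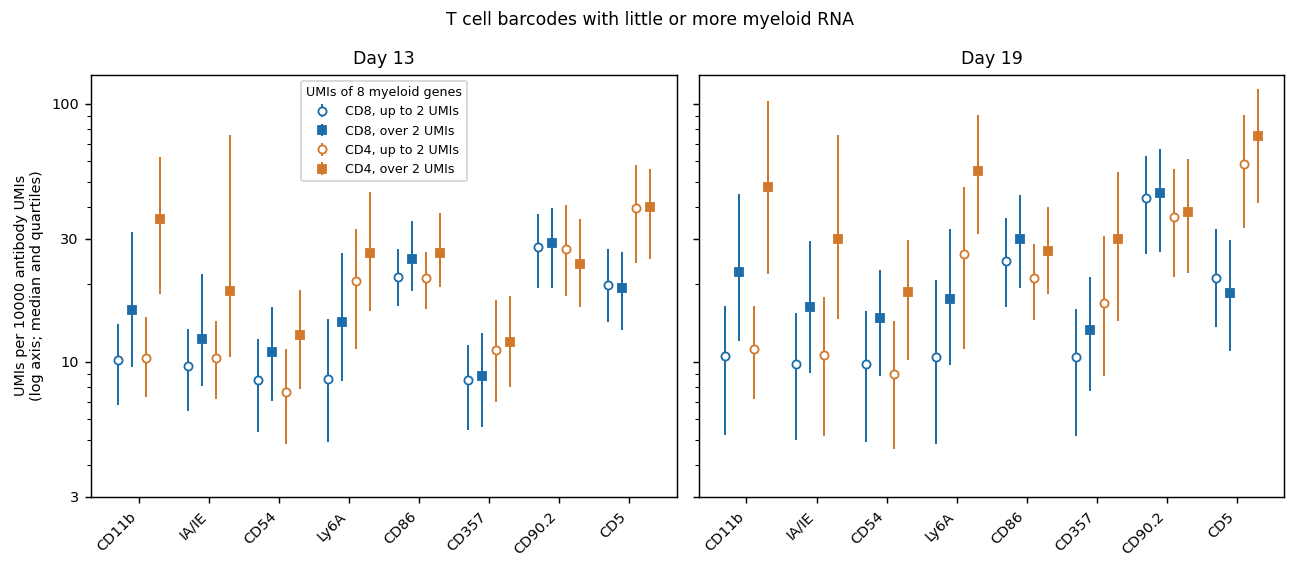
Level of 8 tags (UMIs per 10000 antibody UMIs, log axis) in CD8 and CD4 barcodes with up to 2 (open circles) or over 2 (filled squares) UMIs of 8 myeloid genes, at day 13 and day 19; points are medians and bars are quartiles over barcodes. CD11b and IA/IE are near 10 in T cell barcodes with little myeloid RNA and rise to 47.6 and 30.1 in CD4 barcodes with more at day 19, whereas CD90.2 differs less.

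Non-T barcodes were not 1 cell type, and the tags split them. Clustering of their gene UMIs alone, with both days together, gave 14 clusters, of which 8 took a name from marker genes. The tags had no part in the clustering, so they are a separate readout, though from the same droplets. 11 of the 134 tags reached a cluster median of at least 1.5 times the empty level on both days in a cluster of at least 15 barcodes a day, and 10 of these were highest in the same cluster on both days. The other 123 tags did not. Against the level of antibody-poor barcodes 15 tags did, the same 11 with CD43, CD68, CD90 and H2kb.

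CD11b was highest in the Monocyte-like cluster, whose leading genes include Vcan and Chil3. Of the 6 monocyte markers, 4 were raised in that cluster (Plac8, Vcan, Chil3 and Fn1), while Ly6c2 and Ccr2 were not. The CD11b median there was 81.8 (quartiles 63.9 and 102.3, 151 barcodes) at day 13 and 161.1 (113.9 and 176.3, 30 barcodes) at day 19. The Macrophage-like cluster followed with 78.2 and 122.6, and the Microglia-like cluster, led by P2ry12, Gpr34 and Tmem119, had 49.96 and 75.6. The Plasmacytoid dendritic-like cluster had the lowest medians, 13.5 and 13.1.

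IA/IE had the widest range of cluster medians, with the highest 50.4 times the lowest at day 13 and 63.8 times at day 19, leaving aside Ly6G, whose lowest median at day 19 was 0. Its median was 416.2 (277.3 and 532.7, 70 barcodes) at day 13 and 525.5 (355.5 and 838.1, 21 barcodes) at day 19 in a Mature dendritic-like cluster led by Fscn1, Cacnb3 and Cd200. A second Mature dendritic-like cluster, led by Ccl22 and Ccr7, had 328.8 at day 13 with 54 barcodes and too few at day 19. IA/IE was at 10.2 and 9.30 in the Monocyte-like cluster, near the empty level of 9.54 and 9.11. In the Microglia-like cluster it was at 10.7 at day 13 and, above 1.5 times the empty level, at 15.5 at day 19. The order of the tag was not that of the RNA of H2-Ab1, the MHC class II beta chain gene. H2-Ab1 was 1290 and 1977 CPM in the Mature dendritic-like cluster with the highest tag, but 11853 and 12488 CPM in an unnamed cluster led by Cd79a, H2-DMb2 and Epcam, whose IA/IE medians were 119.1 and 162.5.

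The same Mature dendritic-like cluster was highest for CD86, CD274 (PD-L1) and CD54. CD86 had medians of 87.9 and 52.9 at day 13 and day 19 against empty levels of 18.8 and 19.2. CD274, the ligand of PD-1, had 30.1 and 62.2 against 10.95 and 11.6, and CD54 had 29.5 and 35.1 against 6.38 and 6.29. CD80, the other costimulatory ligand, had its highest medians there too, 76.5 and 71.6, but stayed under 1.5 times its empty level of 52.0 on both days.

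Other tags were highest in other clusters, some of them with few barcodes. CD24 had a median of 34.8 at day 13 (43 barcodes) and 44.9 at day 19 (18 barcodes) in the Type 1 dendritic-like cluster, led by Xcr1, Cd24a and Clec9a, and at most 14.5 in any other cluster. CD317 was highest in the Plasmacytoid dendritic-like cluster, with 53.4 (30 barcodes) and 56.5 (19 barcodes), against empty levels of 30.2 and 30.9. CD49b, the integrin DX5 of natural killer (NK) cells, had 60.1 (26 barcodes) and 73.6 (27 barcodes) in the NK cell-like cluster, led by granzyme genes, Ncr1 and Klrb1c. That cluster also had Thy1 RNA at 320 and 550 CPM and 4 of 8 T cell markers raised. The CD90.2 tag there had medians of 8.72 at day 13 and 12.9 at day 19, against empty levels of 6.836 and 6.495. It was thus above 1.5 times the empty level at day 19 only. CD11c and Ly6A were highest in the unnamed cluster led by Cd79a and H2-DMb2, with 18.7 and 22.3 for CD11c and 34.8 and 45.6 for Ly6A.

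Several antibodies to the very markers of these clusters stayed at background. XCR1, the chemokine receptor that defines type 1 dendritic cells, had medians of 95.3 and 97.6 in the Type 1 dendritic-like cluster against empty levels of 91.8 and 94.8. CD370 (CLEC9A) had 235.6 and 233.3 there against 238.6 and 237.1. Siglec H had 37.3 and 36.1 in the Plasmacytoid dendritic-like cluster, where Siglech RNA was 1133 and 1176 CPM, against 38.9 and 39.7 in empty droplets. NK1.1 had 42.4 and 45.005 in the NK cell-like cluster against 38.2 and 39.9, and CD335 (NKp46) 106.3 and 122.0 against 111.5 and 117.9. F4/80 had 31.7 and 31.8 in the Microglia-like cluster, where its gene Adgre1 was at 128 and 151 CPM, against 33.0 and 33.6. CD115, the CSF1 receptor, had 8.66 and 5.21 there, with Csf1r RNA at 2698 and 3014 CPM and empty levels of 9.47 and 9.82.

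**Figure D4:**
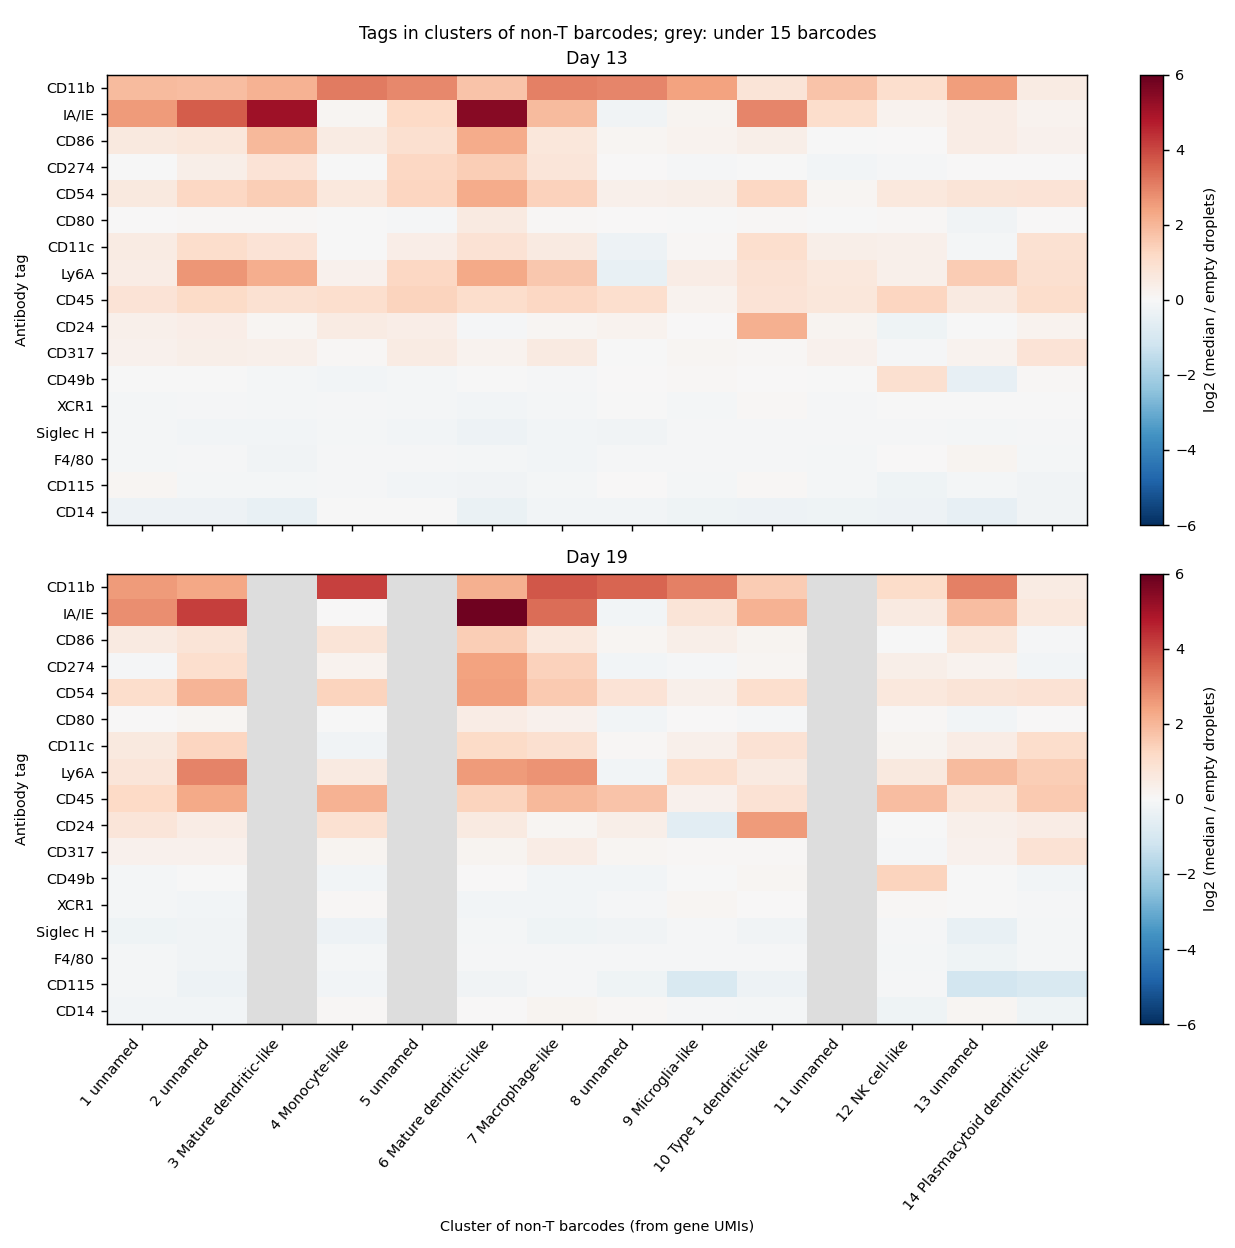
Log2 ratio of the cluster median to the empty-droplet level for 17 tags (rows) in 14 clusters of non-T barcodes (columns) at day 13 (top) and day 19 (bottom); grey columns hold under 15 barcodes. IA/IE, CD86, CD274 and CD54 peak in a Mature dendritic-like cluster, CD24 in the Type 1 dendritic-like, CD317 in the Plasmacytoid dendritic-like and CD49b in the NK cell-like cluster, while XCR1, Siglec H, F4/80, CD115 and CD14 stay near 0 or below.

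Few tags passed 2-fold together with the RNA of their own genes. For CD8 against non-T barcodes at day 13, 76 tags had a gene whose RNA differed at least 2-fold. Of these, 51 had a ratio of medians of the same sign, and 3 passed 2-fold with the RNA. At day 19 the numbers were 80, 51 and 3. Across 110 tags of 103 genes at day 13 the log2 ratios of tag medians and RNA had Pearson's r of 0.36 and Spearman's rho of 0.56, and across 108 tags at day 19 these were 0.38 and 0.45. From summed levels, 47 of 76 tags had the sign of the RNA at day 13 with rho of 0.56, and 38 of 80 at day 19 with rho of 0.20. Over all 138 tags the median log2 ratio of summed levels in this comparison was 0.059 at day 13 and 0.134 at day 19. The share of all tags with each sign is not given, so the sign counts have no background beside them. For CD4 against non-T barcodes rho of medians was 0.54 and 0.56, and 51 of 62 and 53 of 67 tags had the sign of the RNA. For CD8 against CD4 barcodes rho of medians was 0.11 and 0.15, and 18 and 21 of 58 tags with RNA past 2-fold had its sign at day 13 and day 19. The points share libraries and cells, so these values only describe the panel. No tag passed 2-fold against its RNA on both days.

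Within a class, some tags were higher in barcodes with RNA of their own gene. Examples are given here without a count over the panel. CD11b had a median of 66.0 in non-T barcodes with an Itgam UMI and 34.1 in those without at day 13, and 99.3 and 34.9 at day 19, at similar gene UMI depth. IA/IE had 66.3 and 10.3 at day 13 and 68.6 and 9.89 at day 19 in non-T barcodes with and without H2-Ab1. CD5 had 45.5 and 24.6 in CD4 barcodes with and without Cd5 RNA at day 13, and 74.7 and 40.6 at day 19. CD357 had 12.6 and 8.72, then 28.2 and 10.8, by Tnfrsf18 in CD4 barcodes. Ly6A had 12.9 and 5.63, then 17.2 and 6.00, by Ly6a in CD8 barcodes. T cell barcodes with the RNA were deeper, with 8644 against 7727 gene UMIs for Cd5 at day 13, and the part of depth was not tested.

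**Figure D5:**
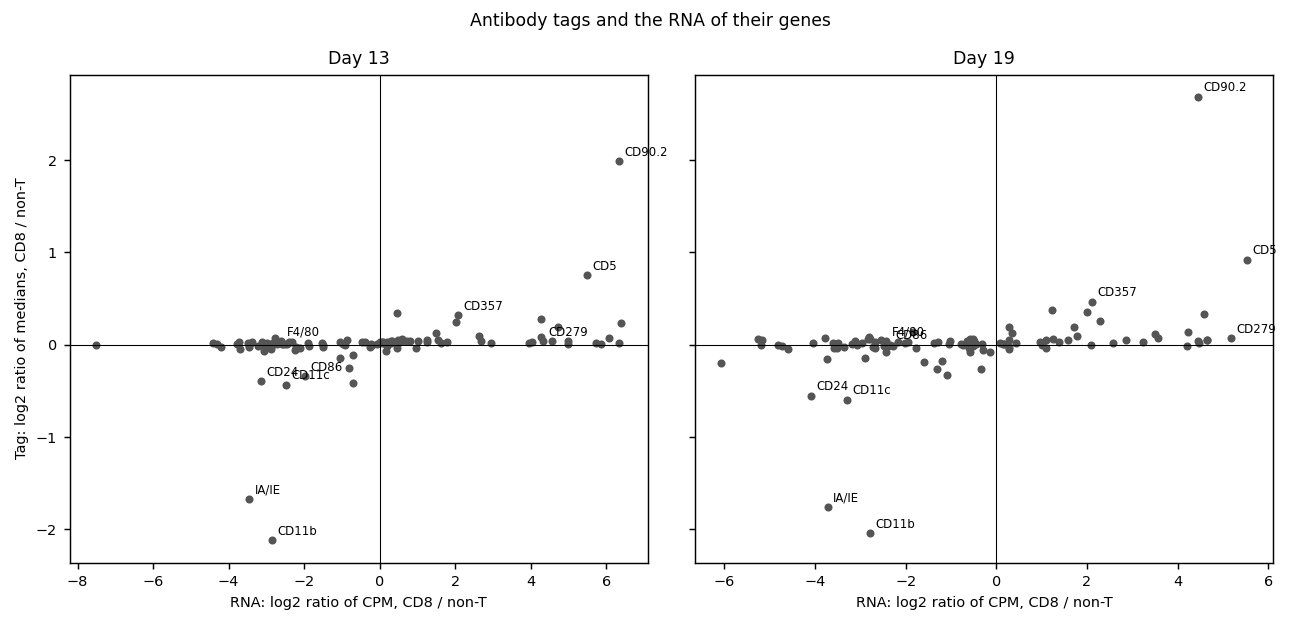
Log2 ratio of tag medians (vertical) against log2 ratio of CPM of the tag's gene (horizontal) for CD8 against non-T barcodes at day 13 and day 19, 1 point per tag, leaving out genes that define the classes. Most tags lie close to the zero line, and CD90.2, CD5, IA/IE and CD11b stand off it.

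Antibodies to TCR V segments could be read against the contigs of the same barcodes. The V beta 5 antibody (TCRVB5.1) binds chains made from TRBV12-1 and TRBV12-2. In barcodes with 1 TRB V segment its median was 60.1 in 509 barcodes with these segments and 54.9 in 3282 without at day 13, and 61.1 in 236 and 52.6 in 2421 at day 19. Barcodes with these segments were higher in 61.5% and 64.6% of pairs, and these 2 segments had the 2 highest medians of 19 TRB segments at day 13 and of 18 at day 19. The V alpha 2 antibody (TCRVa2) binds chains of the TRAV14 family. Its medians were 181.1 with and 172.5 without that family at day 13 (306 and 3298 barcodes), and 184.1 and 166.2 at day 19, with 61.0% and 64.6% of pairs. The V beta 8 antibody gave 52.0% and 57.3% for TRBV13-2 and TRBV13-3, the 2 V alpha 8.3 antibodies between 52.0% and 55.2% for the TRAV12 family, and the V alpha 11 antibody 43.7% and 43.5% for the TRAV4 family, below the 50% of no difference. Every segment of a TRAV family was counted as a target, and which of them an antibody binds was not tested. Even the best of these antibodies sat close to background, since the empty levels of TCRVB5.1 were 56.6 and 57.0.

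The medians of the 9 B cell tags were below the empty level in all 3 classes, while 3 of their sums passed 2-fold in a comparison. Their medians lay between 0.719 and 0.971 times the empty level in the 3 classes over both days, and between 47.2% and 56.4% of pairs went to the first class in the 3 comparisons. The sums past 2-fold were of IgD, CD93 and CD23. CD23, a low-affinity IgE receptor, stood at a log2 ratio of 1.01 in CD4 against non-T barcodes at day 13. It ran from 0.089 to 1.29 with 1 contig set left out, and 1 barcode held 47.6% of its CD4 UMIs. CD93, of that list, had summed levels between 19.5 and 56.0 against medians between 19.6 and 20.7. CD326 (EpCAM), an epithelial adhesion molecule, had log2 ratios of -0.50 and -0.52 in CD8 against non-T barcodes and -0.66 and -0.51 in CD4 against non-T. Its medians were 71.5, 69.96 and 70.02 in CD8, CD4 and non-T barcodes at day 13, and 1 barcode held 42.2% of its non-T UMIs then and 48.0% at day 19. CD55, the decay-accelerating factor of complement, was at 0.29 and 0.50 in CD8 against non-T barcodes, with medians of 13.0 against 10.8 and 13.2 against 10.3 and 61.0% of pairs on both days. CD45.1, the allele that C57BL/6J mice lack, had medians of 151.9, 147.2 and 148.8 in CD8, CD4 and non-T barcodes at day 13, below its empty level of 154.2. CD45.2, the allele they carry, had 68.2, 69.6 and 69.8, against 65.7.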

How the data were processed

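The authors deposited unfiltered matrices of raw UMI counts per gene, antibody tag and barcode, per the file headers made with Cell Ranger 4, and TCR contig tables with UMI counts per contig. The submitters' processing notes name bcl2fastq 2.20, Cell Ranger 4.0.0, STAR 2.7.5c, Seurat, R 4.1.2 and mm10. The matrices held 365112971 antibody UMIs at day 13 and 184384373 at day 19.

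From these counts, tags were summed per class and divided by the class's antibody UMIs, multiplexing tags left out. Log2 ratios of 2 sums have exact 95% Poisson intervals; a log2 ratio of 1 was the limit of a call. Medians, quartiles and shares of barcode pairs (ties counted equally) are over barcodes, which are not replicates. All 138 tags entered each comparison, and none was filtered. No doublets were removed. Clusters came from scanpy 1.11.5 and igraph 0.11.9 with 2000 variable genes, 30 components, 15 neighbours and resolution 0.8. Python 3.11.15, numpy 2.4.6, scipy 1.17.1 and pandas 2.3.3 were used. The interval and the call were checked on simulated Poisson counts of class sums. That check does not cover single barcodes that hold much of a sum.

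Tags and lists were chosen with earlier results of these data known. Tags named are those of the lineage, activation, myeloid, dendritic, B cell and NK lists, the 8 highest and 8 lowest per comparison with the same sign on both days and at least 200 UMIs, and any that opposed its RNA on both days; list tags not described singly are given by counts and ranges, and others named were chosen after their values were seen. Tags were assigned to genes and lists by the usual name of their protein. The 4 contig tables per day share no labels with samples and count as 1 sample.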

Additional observations from a re-analysis of the deposited data

Results flagged for a closer look

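Tags past 2-fold in opposite directions on the 2 days were set apart; the difference between the days was not tested, with 1 capture per day. CD93, a receptor of B cell precursors and myeloid cells, had log2 ratios of summed levels of -1.04 at day 13 and 1.52 at day 19 for CD8 against non-T barcodes, and of -1.13 and 1.22 for CD4 against non-T barcodes. A single barcode held 55.2% of its UMIs in non-T barcodes at day 13, and others held 61.1% in CD8 and 51.8% in CD4 barcodes at day 19. Its medians lay between 19.6 and 20.7 in the 3 classes over both days. IgD had log2 ratios of 1.30 at day 13 and -1.84 at day 19 for CD8 against non-T barcodes, with 52.3% of the CD8 UMIs at day 13 and 77.5% of the non-T UMIs at day 19 in 1 barcode, and medians between 7.81 and 8.63.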

How the results depend on the processing

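The counts of tags past 2-fold in CD8 against non-T, CD4 against non-T and CD8 against CD4 barcodes, in this order, were 5, 5 and 4 at day 13 and 8, 13 and 9 at day 19. A centred log ratio per barcode gave 3, 2 and 1, then 3, 4 and 2. The mean of per-barcode values gave 3 for CD8 against non-T and 2 for CD8 against CD4 barcodes at day 13, and 4 and 5 for CD8 and CD4 against non-T at day 19. Thinning to 1 antibody depth gave 3 and 2 for the same comparisons at day 13, and 5 and 6 at day 19. Ratios of medians, added after seeing the data, gave 3 and 2 at day 13 and 3, 5 and 5 at day 19. Without the top barcode of each tag, also added then, CD8 against non-T gave 3 at day 13 and 4 at day 19, and CD4 against non-T gave 6 at day 19. Without the 1% of barcodes with most antibody UMIs these were 3, 3 and 3. For CD8 against CD4 barcodes at day 13, a minimum of 1000 or 10000 gene UMIs gave 1. For CD4 against non-T at day 19, a minimum of 10000 gave 6, and non-T barcodes without other T cell RNA gave 7. Leaving out 1 contig set at a time gave 4 to 5, 6 to 7 and 4 to 6 at day 13, and 8 to 9, 11 to 14 and 8 to 10 at day 19. Tags over 1.5 times the empty level in CD4 barcodes at day 13 went from 7 to 11, of which 6 shared, when that level came from antibody-poor barcodes, an alternative added after seeing the data. The other 94 recomputed counts were within 1.5 times, and the cause of these shifts was not tested.

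Of the recomputed log2 ratios of single tags, 329 lay within the counting interval of the reported value and 441 outside it in the same direction. They changed direction in 53 of the alternatives, for CD93, IgD, Gr1, Siglec H, CD252, CD38 and CD1d. IgD in CD8 against non-T at day 13 went from 1.30 to -0.38 at a minimum of 10000 and -0.15 to 1.69 with 1 contig set left out. CD93 in CD8 against non-T at day 13 went from -1.04 to 0.026 without the 1% and 0.076 without the top barcode. CD93 in CD4 against non-T at day 13 went from -1.13 to 0.010 without the top barcode. IgD in CD8 against CD4 at day 13 went from 1.45 to -0.025 at a minimum of 10000, -0.018 by medians and -0.0089 to 1.82 with 1 contig set left out. Gr1 in CD8 against CD4 at day 13 went from 1.37 to -0.0090 by medians. CD93 in CD8 against non-T at day 19 went from 1.52 to -0.017 by centred log ratio, -1.63 at a minimum of 1000 and -0.023 by medians. Siglec H in CD8 against non-T at day 19 went from -1.04 to 0.0031 by centred log ratio, 0.0020 by the mean, 0.031 at a minimum of 10000, 0.070 without other T cell RNA, 0.027 without the 1%, 0.0075 after thinning, 0.016 by medians and 0.20 without the top barcode. IgD in CD8 against non-T at day 19 went from -1.84 to 0.054 by centred log ratio, 0.15 at a minimum of 10000, 0.12 without the 1%, 0.12 by medians and 0.27 without the top barcode. CD252 in CD8 against non-T at day 19 went from -1.15 to 0.0063 by centred log ratio, 0.017 without other T cell RNA, 0.056 without the 1%, 0.0069 after thinning, 0.011 by medians and 0.21 without the top barcode. CD93 in CD4 against non-T at day 19 went from 1.22 to -0.054 by centred log ratio, -1.70 at a minimum of 1000, -0.034 at a minimum of 10000 and -0.043 by medians. CD38 in CD4 against non-T at day 19 went from -2.15 to 0.12 by centred log ratio, 0.053 by the mean, 0.14 at a minimum of 10000, 0.22 without other T cell RNA, 0.19 without the 1%, 0.044 after thinning, 0.20 by medians and 0.35 without the top barcode. CD1d in CD4 against non-T at day 19 went from 1.87 to -0.014 by centred log ratio, -2.05 at a minimum of 1000, -0.047 in T cell barcodes with little myeloid RNA and -0.048 by medians. IgD in CD4 against non-T at day 19 went from -1.91 to 0.099 at a minimum of 10000, 0.11 without the 1%, 0.042 by medians and 0.13 without the top barcode. Siglec H in CD4 against non-T at day 19 went from -1.13 to 0.14 without the top barcode. CD252 in CD4 against non-T at day 19 went from -1.24 to 0.13 without the top barcode.

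No paired analysis was possible because the labels give 1 replicate per group and day, and the 4 contig sets of a day, which hold both CD8 and CD4 barcodes, are tied to no labelled sample.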
